A study of Mus musculus with 6 samples.

Results

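The aminoacyl-tRNA synthetases are the enzymes that join each amino acid to its transfer RNA. They were taken from the transcriptome of mouse embryonic stem cells by gene symbol: every protein-coding gene of GENCODE release M21 named for a synthetase of the cytosol or the mitochondrion, which gave 38 of the 52870 genes and loci with a value. Of these, 21 encode cytosolic enzymes or enzyme subunits and 17 encode mitochondrial enzymes. Gars and Kars, counted as cytosolic, also supply the mitochondrial enzyme. The knockout group held 3 libraries of Rbbp4-/- cells and the control group 3 libraries of Rbbp4F/F cells, which the series title calls the control. All cells were embryonic stem cells of the C57BL/6 strain, and no treatment or age is given. How and when Rbbp4 was deleted, and whether each line is a single clone, are not given in the labels. Nor do the labels tie the 3 libraries of a group to separate cultures, so p-values measure the spread between libraries, which may be technical. Rbbp4 encodes a histone-binding subunit of chromatin complexes such as NuRD, Sin3 and Polycomb repressive complex 2, and the study asked how transcripts differ without it.

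Each synthetase activates its amino acid with ATP and transfers it to the matching tRNA. Enzymes of class I and class II have unrelated catalytic folds and different signature motifs. In mammals the cytosol and the mitochondrion use enzymes that are mostly encoded by separate nuclear genes, and several cytosolic enzymes sit in a multisynthetase complex held by scaffold proteins. When amino acids run short, uncharged tRNA activates the kinase GCN2, phosphorylation of eIF2 alpha follows, and translation of the transcription factor ATF4 increases. ATF4 in turn induces genes of amino acid synthesis and transport and many cytosolic synthetase genes. It is regulated largely at translation, so the level of its transcript does not report its activity.

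The libraries held an estimated 25600000 to 28800000 fragments, read from the even spacing of low values. Values are FPKM, fragments scaled to transcript length and library size, and 1 fragment on a transcript of 2 kb was worth 0.0201 to 0.0226 FPKM. Rbbp4 had 21.3, 12.7 and 11.1 FPKM in knockout replicates 1 to 3 and 58.5, 57.0 and 61.8 FPKM in control replicates 1 to 3, so the target was lower in every knockout library (log2 fold change −1.96, SE 0.22, limma adjusted p = 3.94e-04). Which exons were deleted is not given in the labels, so part of this signal may come from exons that remain. Of 8 embryonic stem cell markers, all 8 were detected in every library, and their sum was 1390.2 to 2175 FPKM in the knockout libraries and 4705 to 4855 FPKM in the control libraries. The summed level of 8 trophoblast markers was 2188 to 3934 FPKM in the knockout libraries and 113 to 169 FPKM in the control libraries, most of it from Krt8 and Krt18. Singly, 7 stem cell markers fell and Zfp42 was not called (means of 31.9 FPKM in the knockout and 35.1 FPKM in the control). Of the trophoblast markers 6 rose, whereas Elf5 and Eomes (2.88 and 2.90 FPKM) were not called, and Cdx2, which rose, reached a mean of only 1.52 FPKM. Among all genes tested, 22.5% fell and 36.7% rose. Of 8 markers of feeder fibroblasts, 7 stayed below the expression filter, 0 to 2 were listed at 0 in each library, and the sum was 9.31 to 10.7 FPKM in the knockout libraries and 12.8 to 19.1 FPKM in the control libraries. The part of these marker shifts in the synthetase results was not tested. In bulk RNA, fewer cells of a type and less transcript per cell cannot be told apart.

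Cytosolic synthetase transcripts were mostly lower in the knockout libraries, and mitochondrial ones were mixed. All 38 genes passed the filter of at least 1 FPKM in at least 3 libraries. Of the 21 cytosolic genes, 16 fell, 3 rose and 2 did not pass the test (limma on log2(FPKM + 1), Benjamini-Hochberg adjusted p under 0.05 over 13579 genes). Of the 17 mitochondrial genes, 3 fell, 5 rose and 9 did not pass, and this balance depended on the setting. It was 5 lower and 4 higher with median-ratio scaling, 5 lower and 3 higher with upper-quartile scaling, and 6 lower and 5 higher without knockout replicate 1. Among all genes tested, 22.5% fell and 36.7% rose, 59.1% together, against 76.2% of the cytosolic genes that fell and 17.6% of the mitochondrial genes that fell, a share near the background. The groups did not overlap for 16 cytosolic genes with the knockout below and 3 with it above, and for 3 and 5 mitochondrial genes. Beside these counts, 66.8% of all genes tested did not overlap, 25.5% with the knockout below and 41.3% with it above. The median log2 fold change was −0.74 for the cytosolic genes and −0.06 for the mitochondrial genes, beside 0.17 for all genes tested. The cytosolic median stayed below 0 under every alternative, from −1.01 with upper-quartile scaling to −0.59 with libraries brought to the same FPKM sum, whereas the mitochondrial median changed sign with equal sums (0.09) and without knockout replicate 2 (0.02) or 3 (0.04), and stood at −0.24 with median-ratio scaling, −0.31 with upper-quartile scaling and −0.23 without knockout replicate 1.

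**Figure D1:**
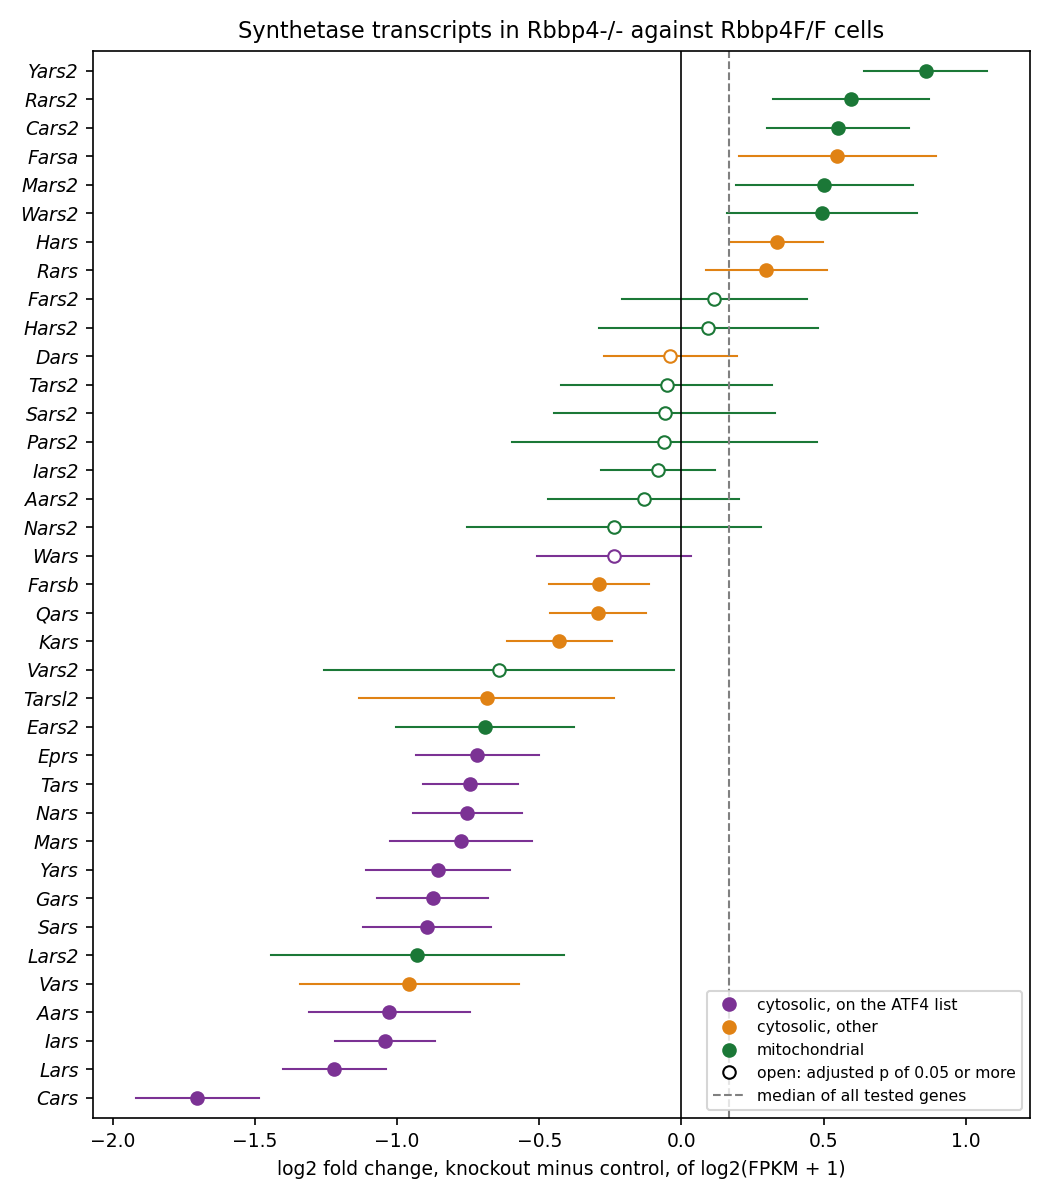
Log2 fold change of each synthetase gene named in the text, knockout minus control, with its 95% interval from limma (3 libraries per group). Filled points passed the test and open points did not, and the dashed line is the median of all genes tested, 0.17. Cytosolic genes on the ATF4 list fill the lower part, from −1.70 for Cars to −0.24 for Wars, and the mitochondrial genes spread from −0.93 for Lars2 to 0.86 for Yars2.

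The cytosolic genes were divided by whether they are well-known targets of ATF4 in other mammalian cells. This list holds 12 of the 21 genes, of which 11 fell and 0 rose, where 22.5% of all genes tested fell and 36.7% rose. The list was chosen with earlier results of these data known. Cars, which encodes cysteinyl-tRNA synthetase, fell most of all 38 genes. It lies on chromosome 7 of GRCm38 (143557230 to 143600090, minus strand, 24 exonic blocks) and had 30.3, 26.6 and 25.2 FPKM in knockout replicates 1 to 3, against 92.9, 94.2 and 86.1 FPKM in control replicates 1 to 3. The mean was 3.33-fold lower in the knockout (log2 fold change −1.70 with an SE of 0.09, limma adjusted p = 4.05e-05), and the 2 groups lay far apart. Antisense exons of Gm15580 cover 3.2% of its exonic length.

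Leucine and isoleucine are charged by large class I enzymes of the multisynthetase complex. Lars, the leucyl enzyme, which also acts as a leucine sensor for mTORC1, had 31.2, 34.3 and 34.9 FPKM in knockout replicates 1 to 3, against 80.9, 80.5 and 76.3 FPKM in control replicates 1 to 3 (log2 fold change −1.22 with an SE of 0.08, limma adjusted p = 5.72e-05). Iars, the isoleucyl enzyme (chromosome 13, 49682100 to 49734267, plus strand), had 63.8, 64.7 and 61.6 FPKM in knockout replicates 1 to 3, against 139, 133 and 123 FPKM in control replicates 1 to 3 (log2 fold change −1.04 with an SE of 0.07, limma adjusted p = 8.10e-05). The knockout values of Iars spanned only 61.6 to 64.7 FPKM, and neither gene overlapped between groups. Aars, the alanyl enzyme, had 79.2, 63.9 and 62.0 FPKM in knockout replicates 1 to 3, against 144, 151 and 125 FPKM in control replicates 1 to 3 (log2 fold change −1.03 with an SE of 0.12, limma adjusted p = 4.72e-04). Exons of Exosc6 on the same strand cover 14.3% of Aars, and how reads there were divided between the 2 genes is not known.

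The enzymes for serine and glycine were the most abundant of the list. Sars, the seryl enzyme, had 182, 148 and 154 FPKM in knockout replicates 1 to 3, against 305, 284 and 310.3 FPKM in control replicates 1 to 3 (log2 fold change −0.90 with an SE of 0.09, limma adjusted p = 3.35e-04). Gars, the glycyl enzyme of both compartments, had 156, 143 and 134 FPKM in knockout replicates 1 to 3, against 273, 273 and 250.1 FPKM in control replicates 1 to 3 (log2 fold change −0.87 with an SE of 0.08, limma adjusted p = 2.15e-04). In both genes every knockout library lay below every control library. Yars, the tyrosyl enzyme, had 49.5, 44.98 and 39.5 FPKM in knockout replicates 1 to 3, against 82.5, 87.4 and 74.4 FPKM in control replicates 1 to 3 (log2 fold change −0.86 with an SE of 0.11, limma adjusted p = 6.38e-04). Mars, the methionyl enzyme, had 123, 99.4 and 95.4 FPKM in knockout replicates 1 to 3, against 186, 181 and 175 FPKM in control replicates 1 to 3 (log2 fold change −0.77 with an SE of 0.11, limma adjusted p = 9.06e-04), with knockout replicate 1 the highest of its group. Its neighbour Ddit3, which rose, covers 1.99% of Mars from the opposite strand.

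Nars, Tars and Eprs fell by similar amounts. Nars, the asparaginyl enzyme, had 94.9, 103 and 106 FPKM in the knockout libraries and 177, 179 and 159 FPKM in the control libraries (−0.75 on the log2 scale). Tars, the threonyl enzyme, had 57.0, 61.1 and 59.5 FPKM in the knockout libraries and 100.3, 104 and 95.2 FPKM in the control libraries (−0.74). Eprs encodes a fused enzyme that charges both glutamate and proline, and it had 43.9, 49.2 and 53.7 FPKM in the knockout libraries and 80.8, 84.0 and 77.8 FPKM in the control libraries (−0.72). Limma adjusted p-values of these 3 genes were 3.46e-04, 2.20e-04 and 6.86e-04, and their groups did not overlap. Wars, the tryptophanyl enzyme, which is also induced by interferon, was the gene of the list that did not pass. It had 65.7, 56.3 and 51.8 FPKM in the knockout libraries and 70.1, 73.8 and 61.3 FPKM in the control libraries, and knockout replicate 1 lay above control replicate 3 (log2 fold change −0.24 with an SE of 0.11, limma adjusted p = 0.112, 95% interval −0.51 to 0.03). Wars passed as lower without knockout replicate 1 (−0.33, limma adjusted p = 0.0247) and under scaling by median ratios (−0.43, limma adjusted p = 0.0181) or upper quartiles (−0.50, limma adjusted p = 0.0107).

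**Figure D2:**
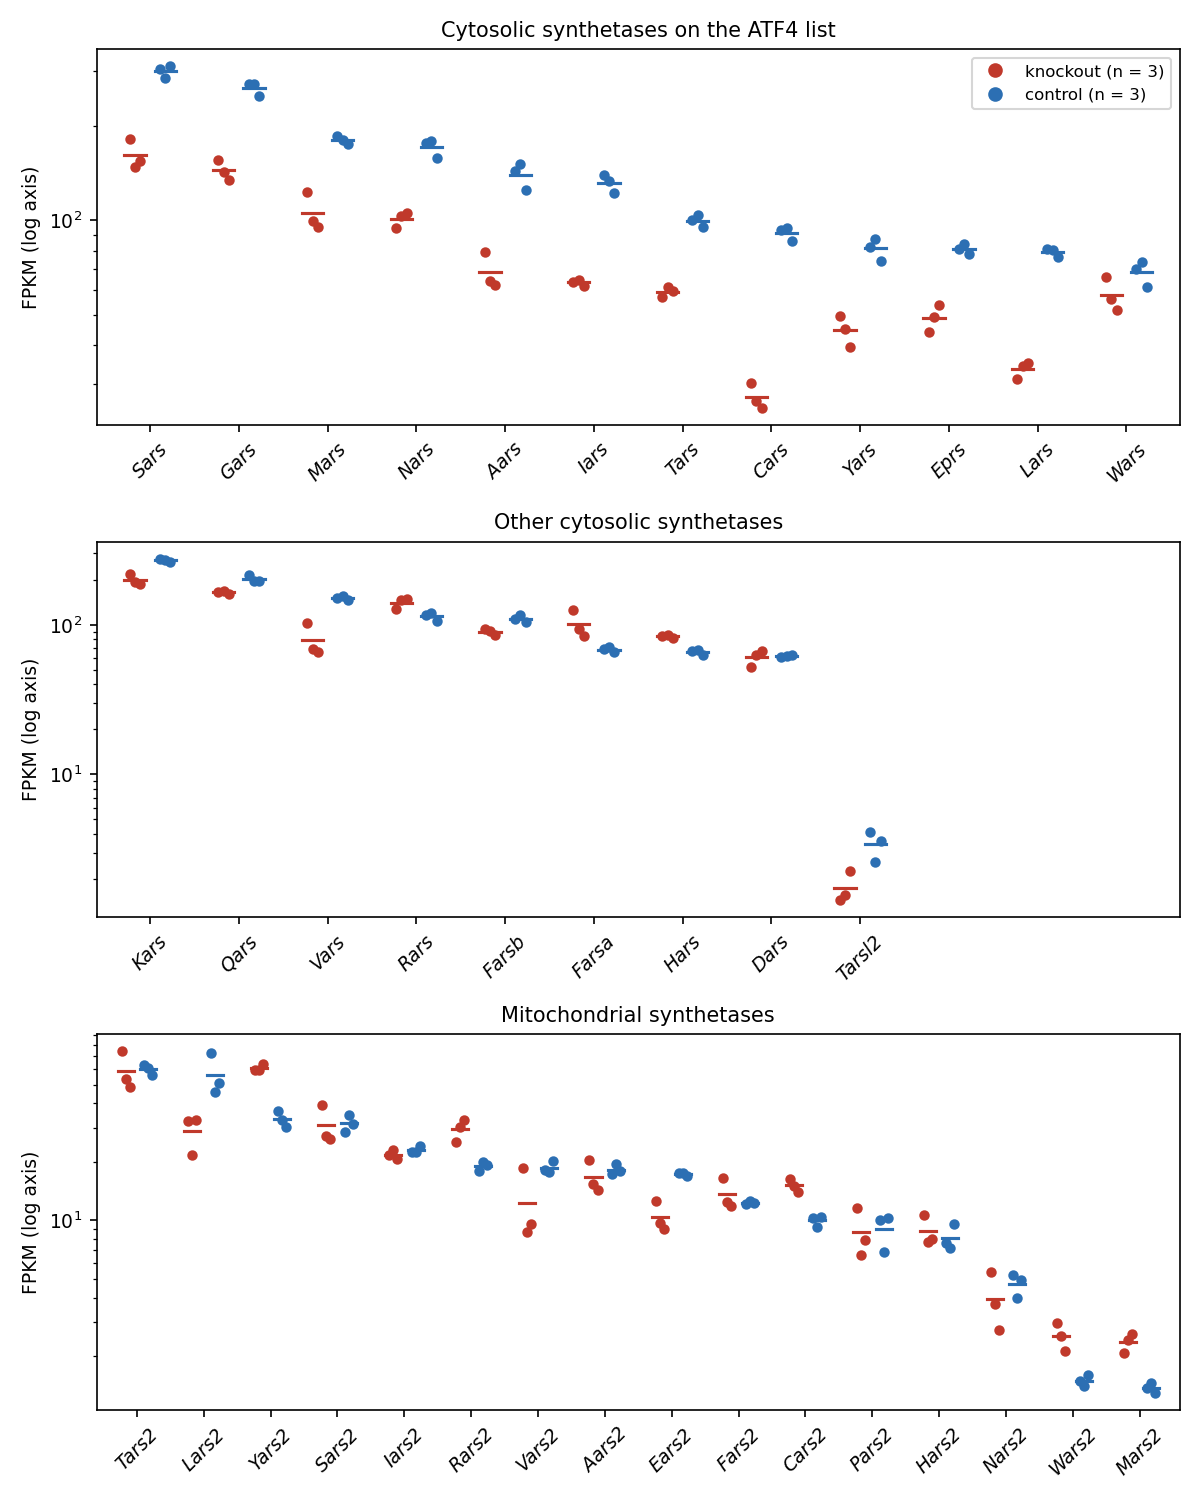
FPKM of each synthetase gene named in the text in every library, on log axes, with knockout points left of control points and short lines at the group means (3 libraries per group). In the top panel the knockout points lie below the control points for every gene but Wars, while in the panel of mitochondrial genes they lie below for Ears2 and Lars2 and above for Yars2, Rars2, Cars2, Wars2 and Mars2.

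Promoters of these genes were searched for TGATGNAA, the core of the C/EBP-ATF response element through which ATF4 is known to act, on both strands. The RefSeq windows reach from 250 bases before to 50 bases after the annotated start on GRCm38.p6, and 28 of the 38 genes had one. 5 of them held the motif, beside 3.97% of the 32851 promoters in the table. A gene was counted if any of its windows matched, whereas the 3.97% is a share of single windows. All 5 (Aars, Gars, Iars, Tars and Yars) are cytosolic genes of the ATF4 list, which had 8 members with a window, and all 5 fell. Of the 12 listed genes 11 fell, beside 22.5% of all genes tested. Most listed genes without a match or a window thus fell too. None of 6 other cytosolic and none of 14 mitochondrial promoters held these letters, which says nothing of sites elsewhere. A stretch around a match in each of these genes is shown because these genes moved together, 5′ to 3′ on the strand of the gene, with the match in capitals. These matches begin 30 bases before the start in Gars and 15 before in Tars, and 3 bases after it in Yars, 7 after in Iars and 9 after in Aars.
Aars (chr8:111033840-111033869, plus strand): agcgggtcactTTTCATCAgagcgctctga
Gars (chr6:55037881-55038000, plus strand): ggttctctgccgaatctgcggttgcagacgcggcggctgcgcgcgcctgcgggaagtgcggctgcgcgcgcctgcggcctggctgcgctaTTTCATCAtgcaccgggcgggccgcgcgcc
Iars (chr13:49682126-49682155, plus strand): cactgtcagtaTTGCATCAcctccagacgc
Tars (chr15:11399659-11399778, minus strand): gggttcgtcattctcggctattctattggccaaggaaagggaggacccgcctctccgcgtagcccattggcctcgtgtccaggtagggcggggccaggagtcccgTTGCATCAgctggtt
Yars (chr4:129189895-129189924, plus strand): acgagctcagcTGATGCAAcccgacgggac
A match is a description of the letters and not evidence of binding. Among ATF4 target genes outside the family, 8 of 22 with a window held TGATGNAA.

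The 9 cytosolic genes outside the ATF4 list were mixed, with 5 lower, 3 higher and a median log2 fold change of −0.29, where 22.5% of all genes tested fell and 36.7% rose. The share that rose is near that background, and none of the 3 was called under median-ratio or upper-quartile scaling. Vars, the valyl enzyme, fell most of these. It had 102, 69.2 and 65.7 FPKM in knockout replicates 1 to 3, against 151, 156 and 147 FPKM in control replicates 1 to 3 (log2 fold change −0.96 with an SE of 0.16, limma adjusted p = 0.00234), with knockout replicate 1 well above the others of its group. Kars, the lysyl enzyme of both compartments, had 218, 195 and 188 FPKM in knockout replicates 1 to 3, against 276, 269 and 264 FPKM in control replicates 1 to 3 (log2 fold change −0.43 with an SE of 0.08, limma adjusted p = 0.00307). Its pseudogene Kars-ps1 was listed at 0 in all 6 libraries. Qars, the glutaminyl enzyme, had 165, 169 and 161 FPKM in the knockout libraries and 216, 195 and 195 FPKM in the control libraries (log2 fold change −0.29 with an SE of 0.07, limma adjusted p = 0.0108). The Qars call was lost with equal FPKM sums (−0.13, limma adjusted p = 0.1504) and without control replicate 1 (0.0564). Tarsl2, a low-expressed second threonyl enzyme of the cytosol, had 1.44, 1.56 and 2.25 FPKM in the knockout libraries and 4.1, 2.6 and 3.6 FPKM in the control libraries (log2 fold change −0.69 with an SE of 0.19, limma adjusted p = 0.0176), and its call was lost without control replicate 1 (0.0716) or 3 (0.0615), without knockout replicate 2 (0.0625) and without a filter (0.0584).

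Phenylalanyl-tRNA synthetase of the cytosol is a tetramer of alpha and beta subunits, and the genes of its subunits moved apart. Farsa, the alpha subunit (chromosome 8, 84856989 to 84869257, plus strand), had 127, 93.9 and 84.7 FPKM in knockout replicates 1 to 3, against 68.8, 70.7 and 65.3 FPKM in control replicates 1 to 3 (log2 fold change 0.55 with an SE of 0.15, limma adjusted p = 0.0155). Farsb, the beta subunit (chromosome 1, 78417975 to 78488897, minus strand), had 93.2, 90.5 and 85.7 FPKM in knockout replicates 1 to 3, against 109.6, 116 and 104 FPKM in control replicates 1 to 3 (log2 fold change −0.29 with an SE of 0.07, limma adjusted p = 0.0133). Every knockout library had more Farsa and less Farsb than every control library, and their order by level was thus turned in knockout replicates 1 and 2. Scaling by median ratios (0.36, limma adjusted p = 0.0740) or by upper quartiles (0.28, limma adjusted p = 0.14999) ended the Farsa call, as did leaving out control replicate 3 (0.0568). The Farsb call was lost with equal FPKM sums (−0.13, limma adjusted p = 0.131) and without control replicate 1 (0.0529) or 2 (0.0588). Antisense exons of Sgpp2 cover 9.47% of Farsb.

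Hars and Rars were the other cytosolic genes that rose. Hars, the histidyl enzyme, had 84.5, 86.0 and 81.1 FPKM in the knockout libraries and 67.2, 68.2 and 63.3 FPKM in the control libraries (log2 fold change 0.34 with an SE of 0.07, limma adjusted p = 0.00529). Rars, the arginyl enzyme, had 127, 147 and 148 FPKM in the knockout libraries and 116, 119.7 and 106 FPKM in the control libraries (log2 fold change 0.30 with an SE of 0.09, limma adjusted p = 0.0243). Neither call held under median-ratio or upper-quartile scaling: Hars was at 0.15 by median ratios and 0.07 by upper quartiles (limma adjusted p = 0.126 and 0.434), and Rars at 0.11 and 0.03 (limma adjusted p = 0.354 and 0.761). The Rars call was also lost without control replicate 1 (0.0666) or 3 (0.0857) and without knockout replicate 2 (0.0883) or 3 (0.0682). Exons of Hars2, which runs the other way from the same locus, cover 7.97% of Hars. Dars, the aspartyl enzyme, had 52.6, 62.7 and 66.5 FPKM in the knockout libraries and 61.4, 61.9 and 62.9 FPKM in the control libraries, and its interval reached either side of 0 (log2 fold change −0.04 with an SE of 0.10, limma adjusted p = 0.753, 95% interval −0.27 to 0.20). With upper-quartile scaling Dars passed as lower (−0.30, limma adjusted p = 0.0304).

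Most enzyme genes of the multisynthetase complex fell, though not all. Of the 8 genes of the complex in the family, Eprs, Iars, Lars, Mars, Qars and Kars fell, Rars rose and Dars did not pass, a median of −0.57, beside −0.75 for the 13 other cytosolic genes. Among all genes tested, 22.5% fell and 36.7% rose. The Rars call was lost in 6 alternatives and the Qars call in 2. With upper-quartile scaling Rars stood at 0.03 (limma adjusted p = 0.761) and Dars passed as lower. The summed level of the 8 genes was 818 ± 7.75 FPKM in the knockout libraries and 1121 ± 38.2 FPKM in the control libraries. Of the 3 scaffold genes, 1 rose, 1 fell and 1 did not pass, beside the same shares of all genes tested. Aimp2 had 137, 118 and 115 FPKM in the knockout libraries and 99.8, 99.3 and 98.0 FPKM in the control libraries (log2 fold change 0.31 with an SE of 0.08, limma adjusted p = 0.0158). Eef1e1, which encodes AIMP3, had 69.8, 77.2 and 80.3 FPKM in the knockout libraries and 89.2, 94.5 and 92.6 FPKM in the control libraries (log2 fold change −0.28 with an SE of 0.08, limma adjusted p = 0.0182). Aimp1, added to complete the set, had means of 117 ± 3.49 FPKM in the knockout libraries and 117 ± 1.41 FPKM in the control libraries (SD, n = 3 each, limma adjusted p = 0.962). None of the 3 held its place: the Aimp2 call was lost by median ratios (0.260), by upper quartiles (0.669) and without any single control replicate (0.0525 to 0.0550), and the Eef1e1 call with equal sums (0.258) and without control replicate 2 (0.0701) or 3 (0.0576). Aimp1 passed as lower by median ratios (−0.20, limma adjusted p = 0.0358) and upper quartiles (−0.27, limma adjusted p = 0.0106), and its sign turned with equal sums (0.15), without control replicate 1 (0.0047) and without knockout replicate 1 (0.02).

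Of 3 sets of synthetase genes, the ATF4 list differed most in its summed level. The 12 listed genes summed to 976, 894 and 878 FPKM in knockout replicates 1 to 3, against 1732, 1725 and 1613 FPKM in control replicates 1 to 3, which left 54.2% of the control mean. The 9 other cytosolic genes summed to 970.2, 914 and 883 FPKM in the knockout libraries and 1069.9, 1060.5 and 1012 FPKM in the control libraries, 88.1% of the control mean. The 17 mitochondrial genes summed to 389.6, 314 and 320.3 FPKM in the knockout libraries and 372, 338 and 343 FPKM in the control libraries, and these ranges overlapped. The ratio of the cytosolic to the mitochondrial sum was 4.997, 5.76 and 5.50 in knockout replicates 1 to 3 and 7.54, 8.23 and 7.65 in control replicates 1 to 3. The FPKM of all genes also summed to less in the knockout libraries, at 737123, 699372 and 697933 in replicates 1 to 3, against 790121, 800146 and 792287 in control replicates 1 to 3. The family sums were not rescaled for this, so a small difference in them may reflect the library totals. Sums over the family are given as descriptions, without a test.

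**Figure D3:**
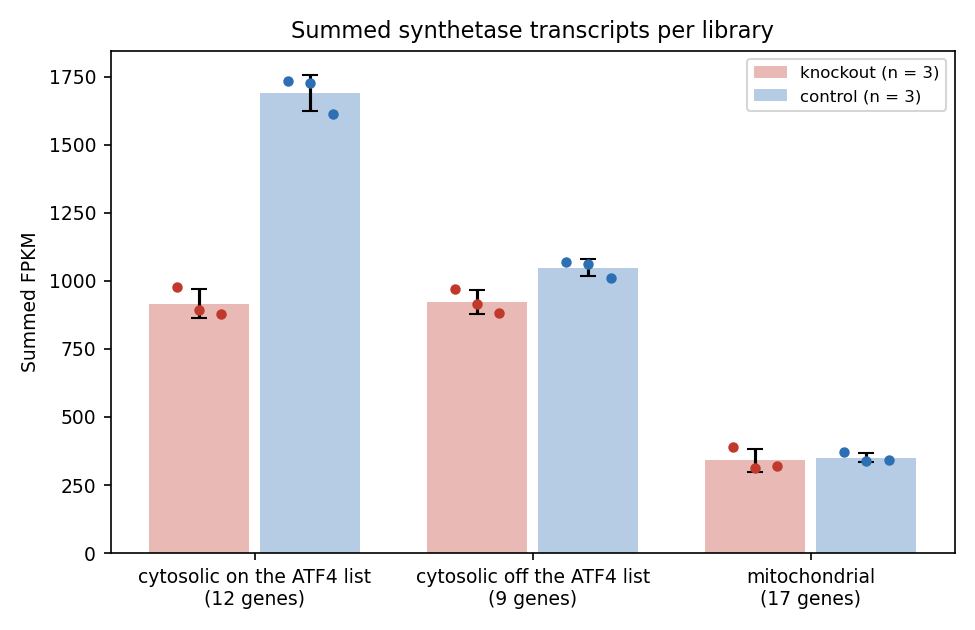
Summed FPKM of 3 sets of synthetase genes in each library, with bars at the group means, error bars of 1 SD and points for the libraries (3 per group, knockout left of control). The set on the ATF4 list stands at 916 ± 52.7 FPKM in the knockout and 1690.1 ± 66.6 FPKM in the control, and the mitochondrial sums overlap.

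5 mitochondrial genes rose, each with every knockout library above every control library, as were 41.3% of all genes tested. Yars2, the mitochondrial tyrosyl enzyme (chromosome 16, 16302965 to 16309640, plus strand), rose most of all 38 genes. It had 59.6, 59.2 and 63.6 FPKM in knockout replicates 1 to 3, against 36.5, 32.7 and 30.2 FPKM in control replicates 1 to 3 (log2 fold change 0.86 with an SE of 0.09, limma adjusted p = 3.37e-04). Rars2, the arginyl enzyme, had 25.3, 30.3 and 32.9 FPKM in knockout replicates 1 to 3, against 17.9, 20.1 and 19.3 FPKM in control replicates 1 to 3 (log2 fold change 0.60 with an SE of 0.12, limma adjusted p = 0.0042). Cars2, the cysteinyl enzyme, which is also known to make cysteine persulfides, had 16.3, 15.0 and 14.01 FPKM in the knockout libraries and 10.3, 9.25 and 10.4 FPKM in the control libraries (log2 fold change 0.55 with an SE of 0.11, limma adjusted p = 0.00399), with antisense exons of Naxd over 5.83% of it. The calls of Yars2, Rars2 and Cars2 held under all alternatives. The others were the 2 mitochondrial genes of lowest level. Mars2, the methionyl enzyme, encoded in a single exonic block, had 2.06, 2.42 and 2.61 FPKM in the knockout libraries and 1.37, 1.45 and 1.29 FPKM in the control libraries (log2 fold change 0.50 with an SE of 0.13, limma adjusted p = 0.0143). Wars2, the tryptophanyl enzyme, had 2.94, 2.52 and 2.12 FPKM in the knockout libraries and 1.48, 1.4 and 1.6 FPKM in the control libraries (log2 fold change 0.49 with an SE of 0.14, limma adjusted p = 0.0203). The Mars2 call was lost without a filter (0.0555), by upper quartiles (0.0625) and without any of control replicates 1 (0.0560) and 3 (0.0521) and knockout replicates 2 (0.0552) and 3 (0.0529). The Wars2 call was lost without a filter (0.0715), with median-ratio (0.0572) and upper-quartile scaling (0.0936) and without control replicate 1 (0.0707) or 2 (0.0716) or knockout replicate 2 (0.0654).

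The mitochondrial genes that fell held their calls under all alternatives, Lars2 and Ears2 among them. Lars2, the leucyl enzyme, had 32.6, 21.8 and 32.7 FPKM in knockout replicates 1 to 3, against 72.6, 45.8 and 50.7 FPKM in control replicates 1 to 3 (log2 fold change −0.93 with an SE of 0.22, limma adjusted p = 0.00918). Its control values spread widely, with replicate 1 far above the others. Ears2, the glutamyl enzyme, whose product also feeds the glutamine tRNA through an amidotransferase, had 12.6, 9.64 and 9.07 FPKM in the knockout libraries and 17.4, 17.5 and 16.9 FPKM in the control libraries (log2 fold change −0.69 with an SE of 0.13, limma adjusted p = 0.00394).

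Of the 9 mitochondrial genes that did not pass, Vars2, the valyl enzyme, had the lowest fold change. It had 18.6, 8.67 and 9.58 FPKM in knockout replicates 1 to 3, against 18.2, 17.7 and 20.1 FPKM in control replicates 1 to 3 (log2 fold change −0.64 with an SE of 0.26, limma adjusted p = 0.0691). Knockout replicate 1 lay among the controls and the other knockout replicates lay far below them, and without replicate 1 the fall passed (−0.96, limma adjusted p = 5.05e-04). Scaling by median ratios (−0.82, limma adjusted p = 0.0298) or upper quartiles (−0.89, limma adjusted p = 0.0230) also made Vars2 pass. Antisense exons of Gm20483 cover 8.52% of it. Tars2, the threonyl enzyme and the most abundant mitochondrial member in the controls, had 74.1, 53.4 and 48.6 FPKM in the knockout libraries and 63.1, 60.8 and 55.9 FPKM in the control libraries (log2 fold change −0.05 with an SE of 0.16, limma adjusted p = 0.792). Iars2, the isoleucyl enzyme, had 21.6, 23.0 and 20.7 FPKM in the knockout libraries and 22.5, 22.6 and 24.1 FPKM in the control libraries (log2 fold change −0.08 with an SE of 0.08, limma adjusted p = 0.438, 95% interval −0.28 to 0.12), and was called lower when scaled by median ratios (−0.27) or upper quartiles (−0.34). Antisense exons of 2010103J01Rik and Rab3gap2 cover 24.2% of Iars2. The fold changes of the other 6, Aars2, Fars2, Hars2, Nars2, Pars2 and Sars2, ran from −0.24 to 0.12, with limma adjusted p from 0.379 to 0.833. Their knockout and control values overlapped, and their 95% intervals reached from −0.75 for Nars2 to 0.48 for Hars2, so changes of that size lie within the error of these libraries. Antisense exons of Lyrm4 and Nrn1 cover 10.7% of Fars2. Without knockout replicate 1, Aars2 (−0.28, limma adjusted p = 0.0288) and Tars2 (−0.23, limma adjusted p = 0.0437) passed as lower.

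Split by catalytic fold, the mitochondrial genes that rose were all of class I, the fold of 9 of the 17. Of these 9, 5 rose, 2 fell and 2 did not pass, with a median of 0.49, where 36.7% of all genes tested rose and 22.5% fell. Of the 5, Mars2 and Wars2 each lost their call in 6 alternatives. Of the 8 class II genes, 0 rose, with a median of −0.06. Among cytosolic genes, 7 of 9 of class I and 8 of 11 of class II were lower, with the fused Eprs left aside. The difference between the classes was not tested.

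For each amino acid with a cytosolic and a mitochondrial enzyme, the log2 ratio of their FPKM was taken in every library, which gave 18 pairs. The ratio was lower in every knockout library than in every control library for 11 pairs, higher for 2 and overlapping for 5, and its median change was −0.56. Of all single genes tested, 66.8% did not overlap between groups, 25.5% with the knockout below and 41.3% with it above. The share of pairs that did not overlap in either direction is near the 66.8%, while most of these pairs lay below. A ratio of 2 genes is a different measure from a single gene, and no share was taken over ratios of other genes. Eprs and Fars2 each enter 2 pairs, so the pairs are not independent. With 3 libraries against 3, an exact two-sided permutation test cannot give a p below 0.10, the value of all 13 pairs that did not overlap. Cysteine stood at the end of the order. Its ratio was 0.89, 0.82 and 0.85 in knockout replicates 1 to 3 and 3.17, 3.35 and 3.05 in control replicates 1 to 3, so that Cars exceeded Cars2 by 1.81-fold in the knockout and 9.12-fold in the control. For tyrosine the order of the enzymes turned. The log2 ratio of Yars to Yars2 was −0.27, −0.40 and −0.69 in the knockout libraries and 1.18, 1.42 and 1.30 in the control libraries. For methionine it was 5.90, 5.36 and 5.19 in the knockout libraries and 7.09, 6.96 and 7.09 in the control libraries. Cytosolic transcripts still exceeded mitochondrial ones in all 6 libraries in 15 of the 18 pairs.

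Phenylalanine, by its alpha subunit, went the other way. The log2 ratio of Farsa to Fars2 changed by 0.43, whereas that of the beta subunit, Farsb to Fars2, changed by −0.42 and was lower in every knockout library than in every control library. For leucine (Lars and Lars2) and glutamate (Eprs and Ears2) both genes fell, and their ratios overlapped between groups. Arginine was the amino acid for which both genes rose, although the Rars call was lost under median-ratio and upper-quartile scaling. For histidine the ratio also overlapped, at 2.99, 3.48 and 3.34 in the knockout libraries and 3.14, 3.24 and 2.72 in the control libraries.

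**Figure D4:**
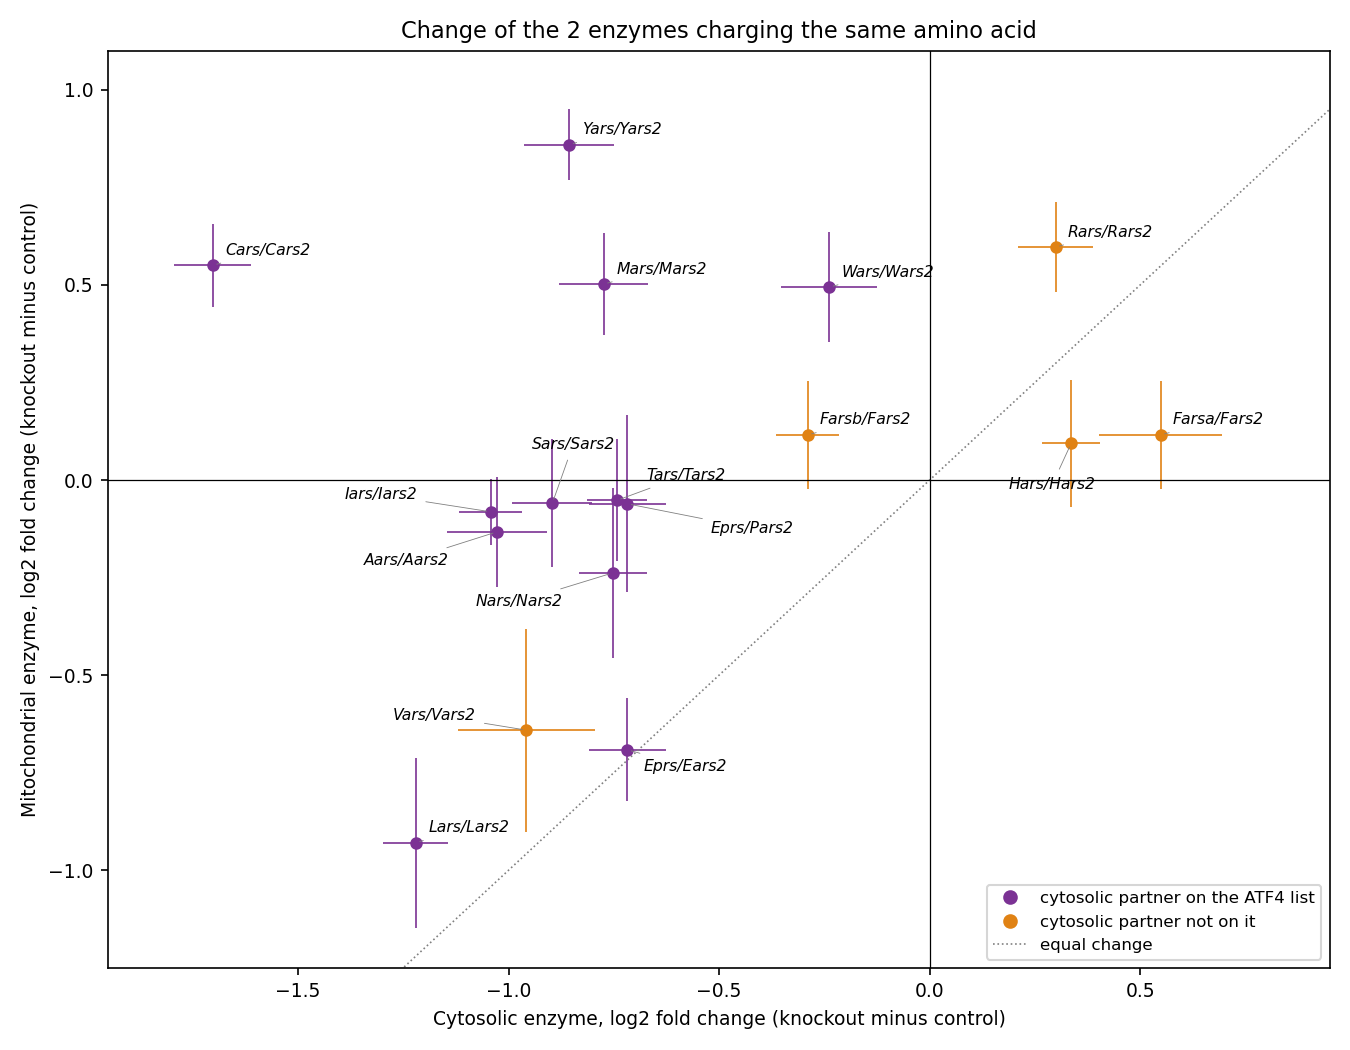
Log2 fold change of the cytosolic gene (horizontal axis) against that of the mitochondrial gene (vertical axis) for the same amino acid, in the pairs of genes named in the text, with bars of 1 SE from limma (3 libraries per group). Points above the dotted line fell more, or rose less, in the cytosolic gene. Cars/Cars2 and Yars/Yars2 lie farthest from it. The log2 ratios of their plain FPKM, which the axes do not show, changed by −2.33 and −1.75.

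Most other ATF4 target genes also fell. Of 26 genes on this list 25 were tested, of which 20 fell, 2 rose and 3 did not pass, where 22.5% of all genes tested fell and 36.7% rose, with a median log2 fold change of −1.62 beside −0.86 for the listed synthetases. Slc7a11 stayed below the filter, at 0.01 to 0.31 FPKM in the knockout libraries and 0.2 to 0.87 FPKM in the control libraries. The list was drawn up with the fall of Pck2 and Pycr1 already known. It is not complete: ATF4 targets placed in other lists, such as Xpot (−0.80) and Ppp1r15a (1.76), are not in these counts. Pck2, the mitochondrial phosphoenolpyruvate carboxykinase gene, had 0.88 to 1.28 FPKM in the knockout libraries and 37 to 45.7 FPKM in the control libraries (log2 fold change −4.35 with an SE of 0.14, limma adjusted p = 1.38e-05). Gpt2, which encodes mitochondrial alanine aminotransferase, had 5.26, 4.93 and 3.76 FPKM in the knockout libraries and 53.1, 56.1 and 48.2 FPKM in the control libraries (log2 fold change −3.25 with an SE of 0.13, limma adjusted p = 1.85e-05). Pycr1, an enzyme gene of proline synthesis, had 3.16, 3.73 and 1.9 FPKM in the knockout libraries and 45.2, 44.1 and 50.8 FPKM in the control libraries (log2 fold change −3.63 with an SE of 0.19, limma adjusted p = 3.70e-05). In each of these genes every knockout library lay far below every control library. Mthfd2, an enzyme gene of mitochondrial folate metabolism, had 23.1, 20.2 and 18.8 FPKM in the knockout libraries and 115, 119 and 93.7 FPKM in the control libraries (log2 fold change −2.34 with an SE of 0.12, limma adjusted p = 3.70e-05). Ddit3, which encodes the stress factor CHOP (1.22), and Atf5 (0.54) rose. They are named because they go against the list, with their values known, and upper quartiles ended the Atf5 call (0.31, limma adjusted p = 0.0737).

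**Figure D5:**
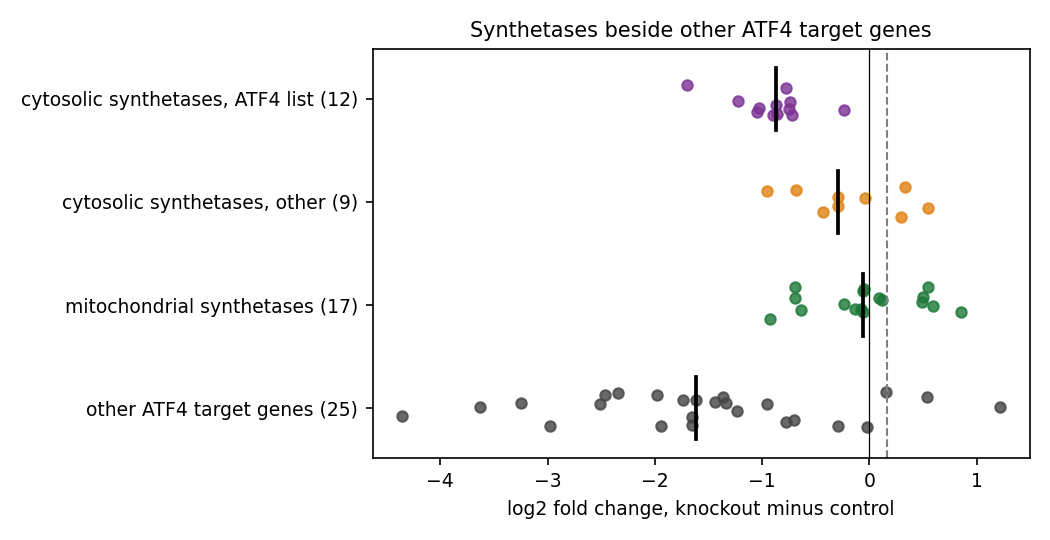
Log2 fold changes, knockout minus control, of the synthetase genes in 3 sets above those of 25 other ATF4 target genes, with a bar at each median and a dashed line at the median of all genes tested. The medians are −0.86 for the listed synthetases, −0.29 for the other cytosolic ones, −0.06 for the mitochondrial ones and −1.62 for the other targets.

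The transcript of Atf4 itself was not called. It had 343, 265 and 252 FPKM in knockout replicates 1 to 3, against 221, 257 and 189.8 FPKM in control replicates 1 to 3 (log2 fold change 0.36 with an SE of 0.15, limma adjusted p = 0.0788), the groups overlapped, and with equal sums it passed as higher (0.52, limma adjusted p = 0.0141). Of 8 genes (the eIF2 alpha kinases, the GCN2 activator gene Gcn1l1, the phosphatase subunits and Atf4), 3 rose and 1 fell. Among all genes tested, 36.7% rose and 22.5% fell, so the share of these genes that rose is near that background. Ppp1r15a, the inducible phosphatase subunit GADD34, had 90.3, 65.1 and 68.6 FPKM in the knockout libraries and 20.1, 27.3 and 17.2 FPKM in the control libraries (log2 fold change 1.76 with an SE of 0.19, limma adjusted p = 3.69e-04). Eif2ak1 (HRI, 0.34) and Eif2ak3 (PERK, 0.42) were higher and Eif2ak4 (GCN2, −0.32) was lower, with limma adjusted p of 0.0231, 0.0498 and 0.0437. These 3 kinase calls are weak. Limma adjusted p ended between 0.0688 and 0.495 for Eif2ak1 in 5 alternatives, between 0.0598 and 0.345 for Eif2ak3 in 9 and between 0.0584 and 0.195 for Eif2ak4 in 8, among them the loss of single libraries of either group. With the replicate block, Eif2ak3 was at 0.0748 and Eif2ak4 at 0.0919.

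Genes that act beside the synthetases were mixed, and their counts stand beside the 22.5% of all genes tested that fell and the 36.7% that rose. Of 11 genes of tRNA export, editing and transamidation, 3 fell and 2 rose. Dtd1, which removes D-amino acids from tRNA, had 22.0, 19.6 and 20.8 FPKM in the knockout libraries and 41.5, 42.9 and 44.7 FPKM in the control libraries (log2 fold change −1.02 with an SE of 0.08, limma adjusted p = 1.18e-04). Xpot, the exporter of tRNA from the nucleus and itself a known ATF4 target, had 40.7, 35.4 and 39.7 FPKM in the knockout libraries and 65.6, 69.3 and 67.8 FPKM in the control libraries (log2 fold change −0.80 with an SE of 0.08, limma adjusted p = 2.89e-04). Aarsd1, which clears serine from alanine tRNA, fell by 1.03 on the log2 scale, and Gatc, a subunit of the mitochondrial amidotransferase, rose by 0.81. Of 9 mitochondrial translation factors, 2 fell (Tufm and Tsfm, the elongation factors Tu and Ts) and 2 rose (the initiation factor Mtif3 and the release factor Mtrf1l). The Mtrf1l call was lost by upper quartiles (0.0501), without a filter (0.0592) and without control replicate 2 (0.0613) or knockout replicate 2 (0.0565) or 3 (0.0584). All 6 cytosolic elongation factor genes fell, among them Eef1b2 (−0.85), Eef2 (−0.998) and Eef1a1 (−0.52), whose call was lost without a filter (0.0723).

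The knockout libraries differed among themselves in the family. Knockout replicate 1, which kept the most Rbbp4 transcript, was the highest knockout library for 12 of the 17 mitochondrial and 11 of the 21 cytosolic genes, where 45.4% of all annotated genes tested were highest in it. It was the lowest of its group for 7 cytosolic genes. It also stood apart in the cell markers, with a stem cell marker sum of 2175 FPKM, beside 1557 and 1390.2 FPKM in knockout replicates 2 and 3, and a trophoblast marker sum of 2188 FPKM, beside 3934 and 3678 FPKM. The part of these differences in the synthetase values was not tested. Without knockout replicate 1, 6 mitochondrial genes fell, and the genes that fell among all tested numbered 3587 of 14030, against 3051 of 13579 with it.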

How the data were processed

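RNA was extracted with Trizol and sequenced as TruSeq libraries, per the labels' protocols. FPKM values per gene were deposited by the authors in files without a header; the unit was read from the values, which are not whole numbers and differ in their sums. Named in the submitters' processing notes, without roles, are GRCm38.p6, RSEM, HISAT2 2.1.0, FastQC and DESeq 1.26.0. No source used here gives the annotation or a strand setting, so overlap with antisense exons is stated. In each file 2 rows held text in place of a gene and were left out.

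Symbols, coordinates and exonic lengths came from GENCODE M21 (GRCm38), which matched 51719 of 51912 Ensembl identifiers. A gene entered the fit if 3 or more libraries had 1 FPKM or more. Its log2(FPKM + 1) values went into limma 3.58.1 (R 4.3.3, two-sided, variance trend by mean, no covariate), adjusted by Benjamini-Hochberg over 13579 genes. This scale understates the change of low genes. The test was checked on simulated data. Means are given ± SD (n = 3 libraries). Exact permutation tests used scipy 1.17.1. Depth was estimated as the number of fragments that put most low values of single-transcript genes within 0.15 of a whole fragment, after a length correction of 260 to 280 bases; 85.9% to 89.4% of these values did so. Promoter sequences are RefSeq's, on GRCm38.p6.

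The members, the gene lists and the tests were chosen with earlier results of these data known. Every member could be named, and of each other list up to 4 called genes with the smallest p, besides Atf4 and genes said to be named otherwise. Alternatives were 3 other scalings, a pseudocount of 0.1, no filter, a filter of 5 FPKM, blocking by replicate number, leaving out each library (with at least 1 FPKM in 2 libraries) and the cytosolic set without Gars and Kars. Values of a single gene and a stretch of sequence are not reported here; counts, medians and sums include all members.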

Additional observations from a re-analysis of the deposited data

How the results depend on the processing

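The count of 16 lower cytosolic genes stayed between 13 and 18 under all alternatives, and 13 of the 16 were called in each of them; the exceptions were Farsb, Qars and Tarsl2. None of the 3 higher cytosolic genes was called with median-ratio (0) or upper-quartile scaling (0), and 1 to 3 were with a library left out. Higher mitochondrial genes numbered 3 with upper-quartile scaling, without a filter and with a filter of 5 FPKM, and 3 to 5 with a library left out. Lower ones numbered 5 with median-ratio and 5 with upper-quartile scaling, and 3 to 6 with a library left out. The cytosolic median was −0.59 with equal FPKM sums, −0.93 with median-ratio and −1.01 with upper-quartile scaling, and −0.78 to −0.71 with a library left out. The mitochondrial median lay between −0.23 and 0.04 with a library left out. The median of all genes tested was −0.0059, −0.07 and 0.31 under median-ratio scaling, upper quartiles and equal sums, where 3838 rose and 3992 fell, 3453 rose and 4402 fell, and 6080 rose and 2380 fell. Higher ATF4 targets numbered 1 with upper-quartile scaling. Leaving out Gars and Kars gave 14 lower and 3 higher. Signs turned only in genes not called: with equal sums in Aars2 (0.017), Dars (0.12), Iars2 (0.071), Pars2 (0.081), Sars2 (0.095) and Tars2 (0.10), with median-ratio scaling in Fars2 (−0.063) and Hars2 (−0.078) and with upper-quartile scaling in Fars2 (−0.13) and Hars2 (−0.14). With a library left out the ranges crossed 0 in Dars (−0.11 to 0.058), Fars2 (−0.023 to 0.20), Hars2 (−0.037 to 0.20), Pars2 (−0.26 to 0.10), Sars2 (−0.24 to 0.039) and Tars2 (−0.23 to 0.070). The causes were not tested.

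With the replicate number as a block, 4872 genes rose and 2907 fell, and no synthetase call changed (cytosolic 3 higher and 16 lower, mitochondrial 5 and 3). Same-numbered libraries did not deviate together (correlations −0.0012, −0.0093 and 0.049). This gave no sign of pairing by number but cannot exclude it, and the labels do not say. Mars2, Wars2, Tarsl2 and Nars2 were below 5 FPKM in too many libraries to be tested with that filter. Depth was estimated and not given, so no counting interval is printed.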
